A study of Homo sapiens with 27 samples.

Results

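Ribosome biogenesis and RNA polymerase I are represented here by 53 listed gene symbols, and all 53 were found among the 13523 genes of the normalised expression table from 501mel, a human melanoma cell line. Membership is given by symbol, with no threshold on a measured value. The members were sorted by known role into 7 genes of RNA polymerase I and its factors, 8 small nucleolar ribonucleoprotein (snoRNP) proteins, 4 nucleolar proteins of several roles, 16 factors of small subunit assembly and 18 factors of large subunit assembly. All 53 passed the filter on low values, so that none was lost before testing.

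The cells were unedited (WT), TFE3 KO, TFEB KO or TFE3 and TFEB double KO (DKO), and TFE3 and TFEB are related transcription factors that are held back by the nutrient-sensing kinase complex mTORC1. WT cells were non-treated, starved for 12 h in HBSS (a balanced salt solution that lacks amino acids), or treated for 12 h with 250 nM Torin1 (Torin), an inhibitor of the kinase mTOR. The 3 knockout genotypes were measured after 12 h under control conditions and after 12 h of 250 nM Torin, with no HBSS library among the samples used here. Each of the 9 groups had 3 libraries by its labels, 27 in all, made from polyadenylated RNA as 3′-end reads, so that 1 read stands for 1 transcript end and levels need no division by gene length. Cas9 with a synthetic guide made the knockouts, which are monoclonal lines, so that clone and genotype cannot be told apart. The WT control carries no time in its label while the knockout controls carry 12 h, and time in culture therefore cannot be told apart from genotype or treatment wherever the WT control is the reference.

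Ribosomes are built in the nucleolus. RNA polymerase I transcribes the long precursor of the ribosomal RNAs there, with UBTF opening the ribosomal DNA and RRN3 carrying the polymerase to the promoter. Box C/D snoRNPs (FBL, NOP56, NOP58) methylate the precursor and box H/ACA snoRNPs (DKC1, NOP10, NHP2, GAR1) turn uridine into pseudouridine, while a large set of assembly factors folds, cuts and exports the small and large subunits. The pathway is among the most costly of a growing cell, is driven by MYC and mTOR signalling, and many of its promoters carry the E-box CACGTG, the letters that MYC and the MITF, TFEB and TFE3 family recognise.

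Since this family reads the E-box, the letters were searched in the promoters before the expression values are given. A promoter of 300 bases (250 before the gene start to 50 after it) was found for 45 of the 53 members in the RefSeq table of GRCh38.p14. The E-box, which reads the same on both strands, was in 17 of these 45 promoters (37.8%), against 10.4% of 9664 promoters of genes tested and 7.43% of all 27305 promoters. An E-box lay within 50 bases of the gene start in 15 of the 45, against 4.15% of the promoters of genes tested. The 7 windows that follow are shown because they hold the E-box, in capitals, of the members that fell most in HBSS among those with an E-box near the gene start (MRTO4, RRP9, NOP10, PES1), of the snoRNP methyltransferase FBL, and of WDR43 and GNL2, which rose. They were read 5′ to 3′ on the strand of the gene.
MRTO4: cgtcttccgccgCACGTGgattcagcgcga
RRP9: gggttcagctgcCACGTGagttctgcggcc
NOP10: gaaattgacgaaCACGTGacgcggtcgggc
PES1: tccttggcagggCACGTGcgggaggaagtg
FBL: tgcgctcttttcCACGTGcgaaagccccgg
WDR43: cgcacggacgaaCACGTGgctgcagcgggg
GNL2: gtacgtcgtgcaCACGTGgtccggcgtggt

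In GRCh38.p14 these windows are chr1:19251807-19251836 on the plus strand for MRTO4, chr3:51941892-51941921 on the minus strand for RRP9, chr15:34343130-34343159 on the minus strand for NOP10 and chr22:30591880-30591909 on the minus strand for PES1. The remaining windows are chr19:39846356-39846385 on the minus strand for FBL, chr2:28894658-28894687 on the plus strand for WDR43 and chr1:37595917-37595946 on the minus strand for GNL2. The E-box started between 11 bases before and 15 bases after the gene start in all 7. The M-box TCATGTG, a variant that MITF binds in pigment genes, was searched on both strands and was in 0 of the 45 promoters, against 1.78% of the promoters of genes tested. The ETS letters CCGGAAG, also on both strands, were in 17 of the 45 (37.8%), against 19.5% of the promoters of genes tested. Similar sets had shares near that of the members. These were 42.2% for other genes of the pathway, 41.8% for mitochondrial and 33.3% for cytosolic ribosomal protein genes. Both motifs stood together in 5 promoters, with no shared letters, and 16 promoters held neither. A match describes the letters only and is no evidence of binding.

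**Figure D1:**
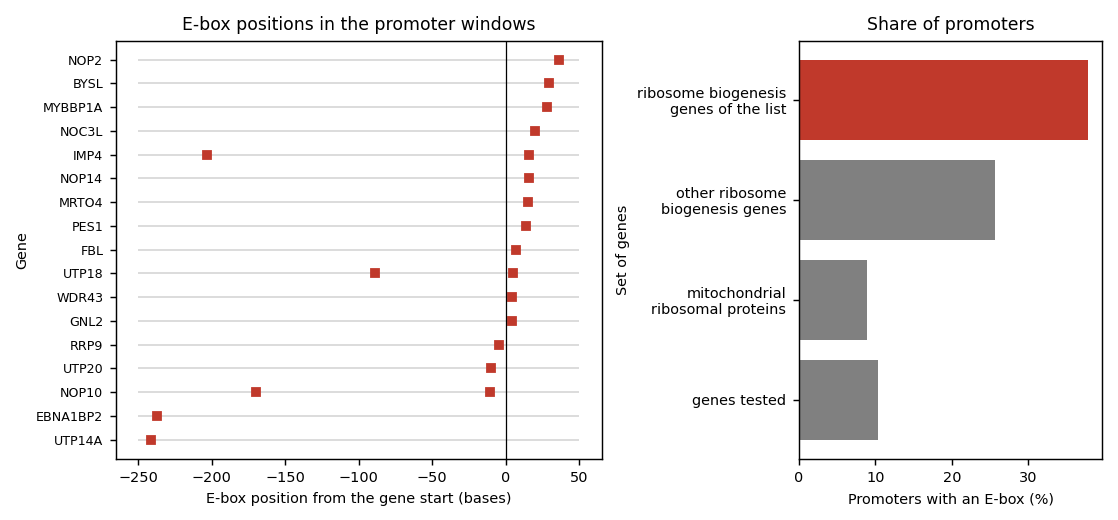
Left, start of each E-box (squares) from the gene start in bases for the 17 members that hold one, with the searched window as a grey line; right, share of promoters with an E-box in percent for the members, the other genes of the pathway, the mitochondrial ribosomal proteins and all genes tested. Most squares cluster at the gene start, those of UTP14A and EBNA1BP2 lie 241 and 237 bases before it, and the shares are 37.8%, 25.7%, 8.96% and 10.4%.

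The values are normalised read counts on a CPM scale, and the 27 libraries held 4147050 to 6526392 reads. At these depths 3 reads correspond to a value of 0.460 to 0.711, and all 53 members lay far above it. WT HBSS replicate 3 and WT Torin replicate 1 held the same value in each of the 13523 genes, so both columns were left out, which leaves 25 libraries and n = 2 for WT HBSS and for WT Torin against n = 3 for the other groups. The identical column held reads in 12917 genes, nearer the other WT HBSS libraries (12895 and 12901) than the other WT Torin libraries (13188 and 13181). The melanocyte markers MITF, SOX10, PMEL, MLANA, TYR and DCT were all present, with group means from 133 to 4386, while the fibroblast markers COL1A1 and LUM had group means of at most 3.87 and 2.68 and no keratinocyte or leukocyte marker was among the genes of the table. TFE3 had a mean of 24.0 in WT control, 6.30 in TFE3 KO control and 6.35 in DKO control (log2 fold changes of -1.79 and -1.77). TFEB had means of 3.25 in WT control, 1.11 in TFEB KO control, 0.681 in TFE3 KO control and 0.661 in DKO control. These knockout means lie near the value of 3 reads, so the size of the fall is uncertain. In WT HBSS the TFEB mean was 29.2 (log2 fold change 2.85, adjusted p = 4.43e-09) and in WT Torin 4.95 (0.49, adjusted p = 0.273). TFEB was lower than in WT control in all 3 knockout lines, including the one labelled TFE3 KO (-1.41, adjusted p = 0.00185), and the 3′-end reads do not cover the edited sites, so that they do not check the edits themselves. Each comparison below was made with limma in 1 model over the 25 libraries, on log2(value + 1), and a member was called at an adjusted p under 0.05, adjusted over the 13052 genes tested. Nothing in the labels ties replicates to separate experiments, so the p-values measure the spread between these libraries. RNA was taken from whole cultures, in which fewer cells with a transcript and less transcript per cell cannot be told apart.

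The members were well expressed. In WT control their means ran from 14.4 for POLR1A, the largest subunit of RNA polymerase I, to 3341 for NCL, the nucleolar RNA-binding protein nucleolin. The median member stood at 120 normalised read counts, above 86.8% of the genes tested, whose median was 19.6. All members together took 1.62% ± 0.051 of the reads in WT control (SD, n = 3), 1.28% ± 0.0084 in WT HBSS (n = 2) and 1.39% ± 0.0067 in WT Torin (n = 2). The members lie on 18 chromosomes, with 9 on chromosome 2 and 6 on chromosome 5.

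**Figure D2:**
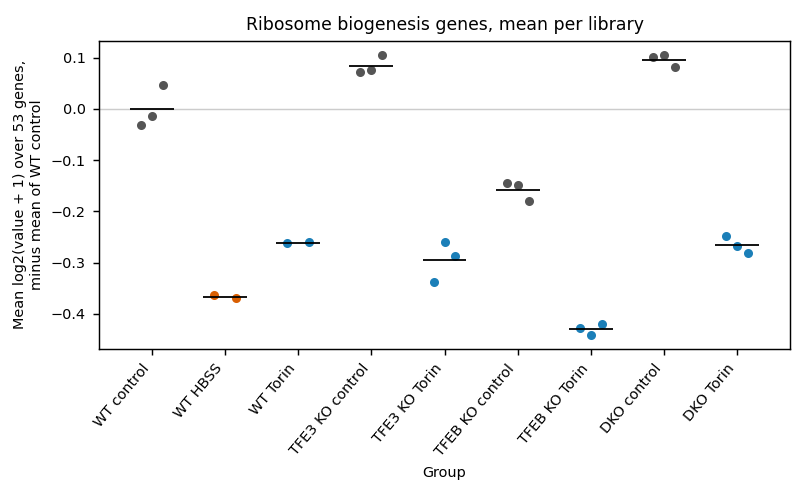
Mean of log2(value + 1) over the 53 members in each library, as the difference from the mean of the WT control libraries; each point is 1 library, coloured by treatment, and each line the group mean. The 3 WT control libraries lie between -0.032 and 0.046, both HBSS libraries near -0.37 and every Torin library lies below the control libraries of its own genotype.

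The mean over the members lay apart in some groups and overlapped in others. The ranges of the TFE3 KO and DKO controls overlapped, as did those of WT, TFE3 KO and DKO under Torin. On the log2 scale and relative to WT control, the TFE3 KO controls lay at 0.072 to 0.105, the DKO controls at 0.082 to 0.106 and the TFEB KO controls at -0.180 to -0.145. Under Torin the means lay at -0.261 for both WT libraries, -0.338 to -0.260 in TFE3 KO, -0.441 to -0.420 in TFEB KO and -0.281 to -0.248 in DKO. On this scale TFEB KO had the lowest libraries in both conditions, and no Torin library reached a control library of the same genotype. As a share of reads under Torin, the members had means of 1.34% in TFE3 KO, 1.36% in TFEB KO, 1.39% in WT and 1.44% in DKO.

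HBSS against control in WT asked how amino acid loss changed the genes. Most members fell, led by the snoRNP core protein NOP56, and a small group rose. Of the 53 members, 35 were lower, against a background of 24.7% of all genes tested, and 6 were higher, against 23.6%. The median log2 fold change was -0.37 for the members and -0.026 for all genes tested. A log2 fold change of -1 or less was seen in 7 members, against 6.2% of all genes tested. Leaving out each WT control or HBSS library in turn gave 27 to 32 lower and 4 to 6 higher members.

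**Figure D3:**
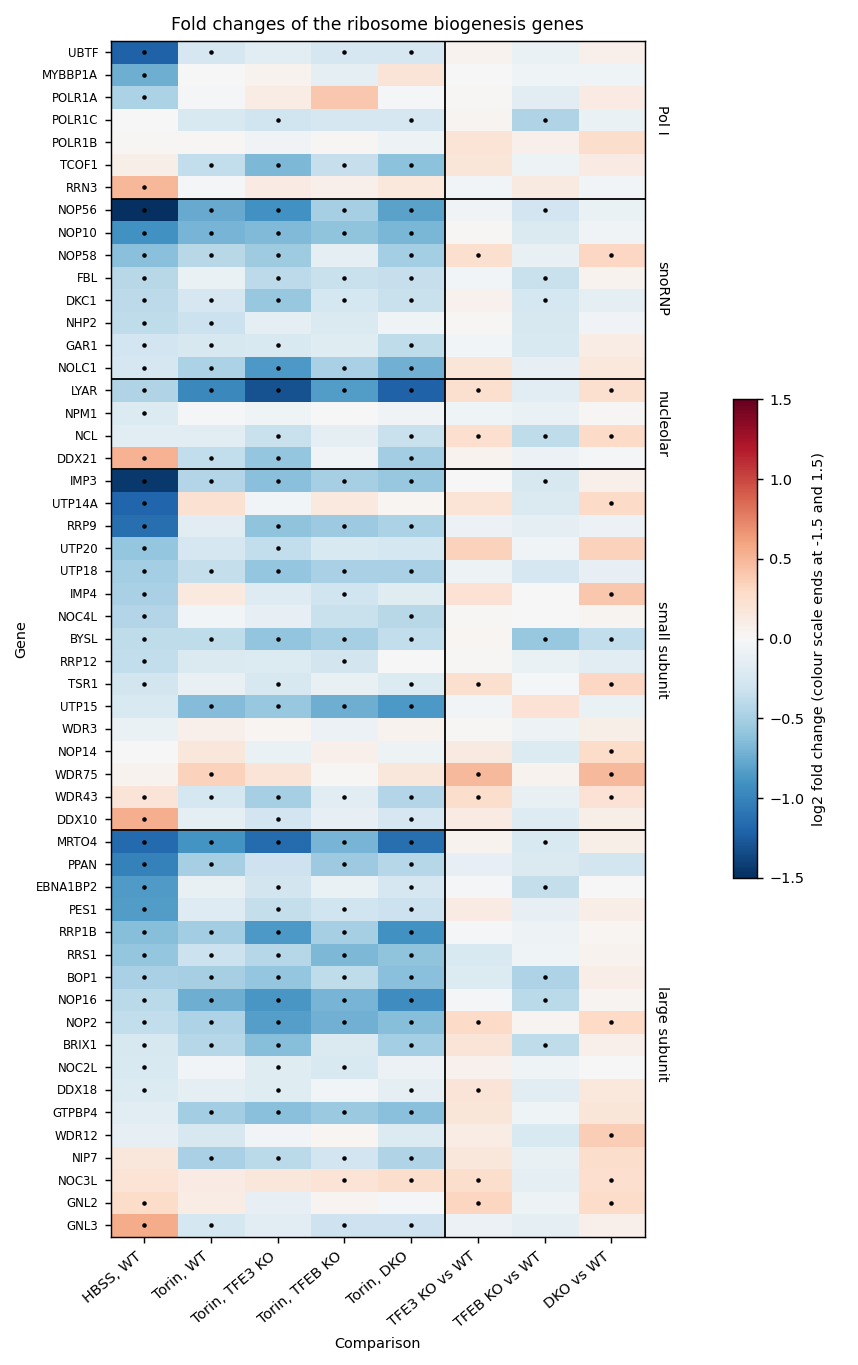
Log2 fold change, by colour, of each of the 53 members (rows, grouped by role and ordered by HBSS) in HBSS, in the 4 Torin comparisons and in the 3 knockouts against WT control (columns); a dot marks a called member. HBSS shows the deepest fall (NOP56, -1.62) and a group of rises (GNL3, DDX10, DDX21, RRN3), each Torin column has 1 call upward or none, and the TFEB KO column has no call upward.

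The snoRNP proteins were the most uniform group in HBSS, with 8 of 8 lower, where 24.7% of all genes tested were lower. NOP56, the scaffold of box C/D particles (chr20:2652593-2658393, plus strand), had 835, 796 and 835 normalised read counts in WT control and 263 and 270 in HBSS. The log2 fold change was -1.62 ± 0.08 (SE), the deepest of all members, with the groups far apart (adjusted p = 5.97e-23). Its partner NOP58 had 686, 706 and 710 in control and 446 and 458 in HBSS, a fall of 0.63 on the log2 scale. FBL, fibrillarin, the methyltransferase of the same particle, had 549, 467 and 474 in control and 362 and 381 in HBSS, a log2 fold change of -0.41. The transcripts of these 3 proteins of 1 particle thus fell by unequal amounts. DKC1, the pseudouridine synthase dyskerin, had 630, 618 and 664 in control and 499 and 469 in HBSS, and its log2 fold change was -0.40. NOP10, the smallest H/ACA protein, fell further than DKC1 within the same particle, from 250, 192 and 206 to 112 and 116 (log2 fold change -0.91). GAR1, called at -0.29, lost its call without WT control replicate 1 (-0.22) or replicate 3 (-0.26) and without either HBSS library (-0.28 and -0.31).

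RNA polymerase I and its factors were mixed, with 3 lower and 1 higher of 7. Of all genes tested, 24.7% were lower and 23.6% higher. UBTF, which binds along the ribosomal DNA, had 111, 125 and 126 normalised read counts in control and 52.0 and 50.7 in HBSS, a log2 fold change of -1.21 ± 0.09 (adjusted p = 4.08e-15). RRN3, the initiation factor of the polymerase, moved the other way, from 67.7, 62.4 and 63.2 to 97.8 and 85.2 (0.50 ± 0.11, adjusted p = 0.000298). RRN3 has near-identical pseudogene copies, so its counts are uncertain. The subunits POLR1B and POLR1C, the second largest and a shared subunit, had log2 fold changes of 0.012 and 0.0081 and did not pass. POLR1A had 12.0, 16.8 and 14.4 in control and 8.98 and 11.1 in HBSS, groups that stood close together, and its call (-0.48, adjusted p = 0.0318) was lost without WT control replicate 2 (-0.37), WT control replicate 3 (-0.47) or HBSS replicate 1 (-0.34). It was also lost with edgeR (-0.49), with DESeq2 (-0.50) and with only the groups compared in the fit (adjusted p = 0.064). MYBBP1A, a nucleolar MYB-binding protein, fell from 35.7, 52.7 and 58.7 to 30.4 and 26.8 (-0.73). TCOF1, treacle, a partner of UBTF, had a log2 fold change of 0.086 and did not pass.

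**Figure D4:**
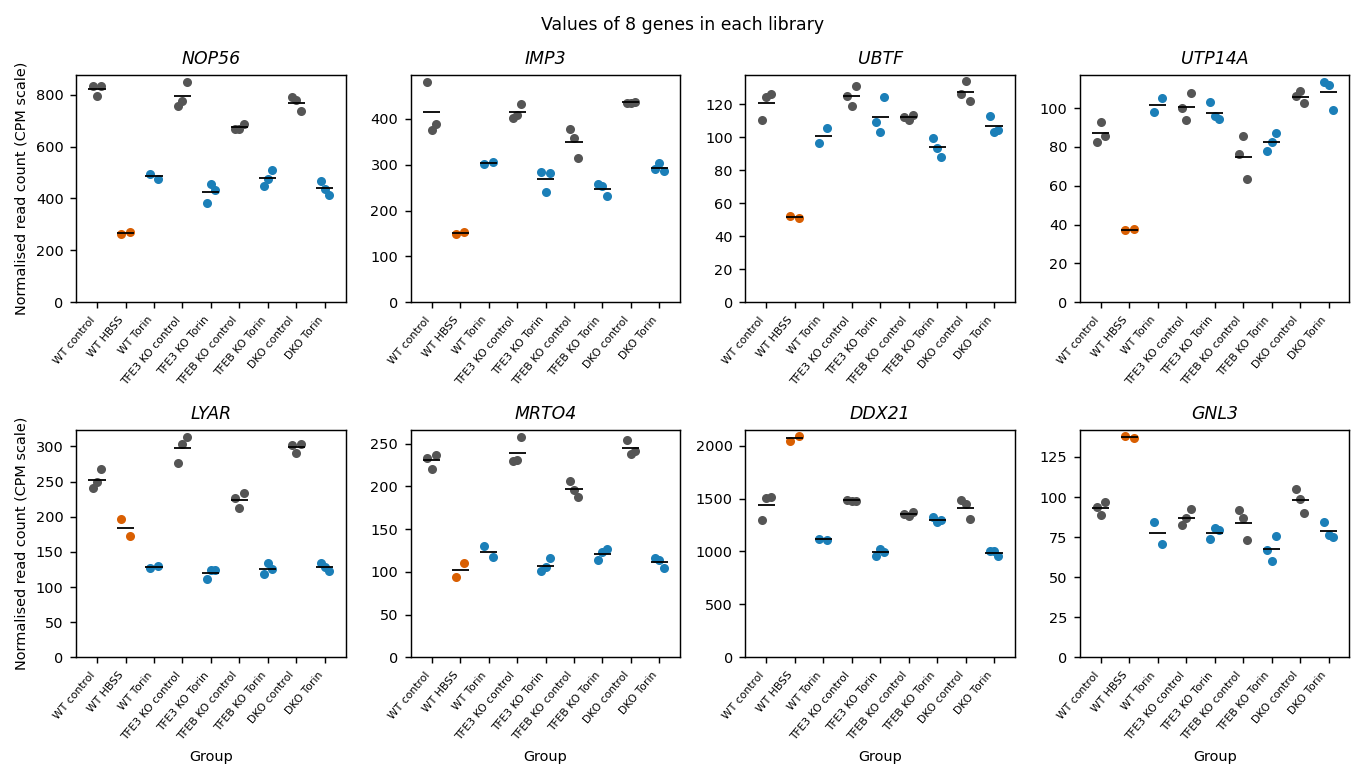
Normalised read counts of NOP56, IMP3, UBTF, UTP14A, LYAR, MRTO4, DDX21 and GNL3 in every library of the 9 groups, on axes that start at 0; each point is 1 library, coloured by treatment, and each line the group mean. UTP14A and UBTF are lowest in HBSS, LYAR is lowest under Torin, and DDX21 and GNL3 are highest in HBSS.

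In small subunit assembly, 10 of 16 members were lower and 2 higher in HBSS, where 24.7% and 23.6% of all genes tested were. IMP3, which pairs the U3 snoRNA with the precursor, had 481, 377 and 390 normalised read counts in control and 149 and 153 in HBSS (log2 fold change -1.45 ± 0.09, adjusted p = 7.93e-19). UTP14A, a cofactor of a processome helicase (chrX:129906121-129929761, plus strand), had 82.7, 92.6 and 85.5 in control and 37.3 and 37.5 in HBSS (-1.20 ± 0.10). Both groups of values were narrow and did not overlap, where 32.0% of all genes tested lay wholly lower in HBSS. UTP14A has a near-identical retrocopy, UTP14C, and reads at the shared end may be split between them. RRP9, a protein of the U3 snoRNP, fell from 39.4, 32.1 and 32.8 to 13.8 and 16.7 (-1.14). DDX10, an RNA helicase, rose from 109, 111 and 116 to 156 and 171 (0.55). WDR43, a component of the early processome, was the other member higher, at 514, 515 and 583 in control and 624 and 608 in HBSS (0.20, adjusted p = 0.0267). That call was lost without WT control replicate 1 (0.17) or 2 (0.17) and without HBSS replicate 1 (0.18) or 2 (0.22), and with only the groups compared in the fit (0.20).

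In large subunit assembly, 12 of 18 members were lower and 2 higher in HBSS, where 24.7% and 23.6% of all genes tested were. MRTO4, a placeholder for the ribosomal stalk protein, had 234, 221 and 237 normalised read counts in control and 93.7 and 111 in HBSS (-1.17 ± 0.09). PPAN had 37.1, 32.7 and 41.0 in control and 18.9 and 16.7 in HBSS (-1.01), and it forms a readthrough with its neighbour P2RY11, which makes its counts uncertain. EBNA1BP2, a nucleolar factor of the large subunit, fell from 573, 526 and 551 to 313 and 296 (-0.85). GNL3, the nucleolar GTPase nucleostemin, rose from 93.7, 88.7 and 96.8 to 138 and 137 (0.56, adjusted p = 2.38e-05), the highest rise of all members. GNL2, a related GTPase, rose from 339, 368 and 383 to 426 and 454 (0.28), and did not pass without HBSS replicate 2 (0.23).

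The nucleolar proteins of several roles went in different directions in HBSS, with 2 lower and 1 higher of 4. With 24.7% of all genes tested lower and 23.6% higher, the share of these 4 that was higher lay near the background. DDX21, the RNA helicase that links RNA polymerase I transcription to processing, rose from 1296, 1508 and 1510 normalised read counts to 2042 and 2093 (0.53 ± 0.07, adjusted p = 4.65e-09). LYAR, a nucleolar zinc finger protein, fell from 240, 249 and 267 to 196 and 173 (-0.45). NCL had 3098, 3310 and 3614 in control and 2920 and 3011 in HBSS, and did not pass (-0.17, adjusted p = 0.0503). NPM1, nucleophosmin, had 1675, 1420 and 1541 in control and 1302 and 1362 in HBSS (-0.21), a gene with many processed pseudogenes, and its call was lost without WT control replicate 1 (-0.15) or HBSS replicate 1 (-0.18), and with the identical column kept as a WT HBSS library (-0.14).

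Members with an E-box in the promoter had a median log2 fold change of -0.51 in HBSS, with 13 of 17 lower and 2 higher, while the 28 without had a median of -0.23, with 15 lower and 4 higher. Of all genes tested, 24.7% were lower and 23.6% higher in HBSS. The genes tested that hold an E-box outside the members were not summarised, so a part of the E-box in these values was not tested. Under Torin the order of the medians varied with the line. In WT it was -0.17 with an E-box (6 lower) and -0.25 without (15 lower), in TFE3 KO -0.37 (11 lower) and -0.26 (16 lower), in TFEB KO -0.29 (10 lower) and -0.23 (12 lower) and in DKO -0.32 for both (10 and 19 lower). In the same order, 23.4%, 26.0%, 21.0% and 26.2% of all genes tested were lower. MRTO4, RRP9, NOP10 and PES1, whose windows are printed above and were chosen by their fall, had HBSS log2 fold changes of -1.17, -1.14, -0.91 and -0.84. UTP14A, which fell by 1.20, had its E-box 241 bases before the RefSeq gene start, which differs from the start of the gene position given above. NOP56, IMP3 and UBTF, which fell further than MRTO4, had no E-box in the windows searched.

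Torin against control in WT asked how direct inhibition of mTOR changed the same genes in WT cells. Here 27 members were lower, against a background of 23.4%, and 1 was higher, against 20.5%. The median log2 fold change was -0.25 for the members and 0.0013 for all genes tested. HBSS and Torin in WT share the WT control libraries, so their values are given side by side. By role, Torin lowered 7 of 8 snoRNP proteins, 11 of 18 large subunit factors, 5 of 16 small subunit factors, 2 of 4 nucleolar proteins and 2 of 7 genes of RNA polymerase I. Leaving out single libraries gave 21 to 27 lower members.

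LYAR led under Torin, with 240, 249 and 267 normalised read counts in WT control and 127 and 130 in WT Torin, a log2 fold change of -0.97 ± 0.09 (adjusted p = 3.2e-13). MRTO4 fell from 234, 221 and 237 to 130 and 118 (-0.89). NOP56 fell from 835, 796 and 835 to 494 and 476 (-0.76 ± 0.08). The treated libraries of these 3 genes lay well below their controls, where 30.9% of all genes tested lay wholly lower in Torin. NOP58 and DKC1 fell by 0.41 and 0.26 on the log2 scale, while FBL (-0.099), NCL (-0.17, adjusted p = 0.0529) and NPM1 (-0.020) did not pass. UBTF had 96.3 and 105 in Torin, a log2 fold change of -0.25 whose call was lost without WT control replicate 2 (-0.23), WT control replicate 3 (-0.22) or Torin replicate 2 (-0.19). It was also lost with edgeR (-0.20), DESeq2 (-0.21), median-of-ratios rescaling (-0.21) or only the groups compared (adjusted p = 0.0559). POLR1A, POLR1B, POLR1C and RRN3 did not pass, with log2 fold changes from -0.23 to 0.022. The 1 member higher was WDR75, an early processome factor, at 45.0, 65.3 and 56.8 in control and 62.1 and 78.9 in Torin (0.34, adjusted p = 0.0164). Its groups overlapped, and no member was higher without WT control replicate 1 (WDR75 at 0.20) or without Torin replicate 3 (0.17). The same held with only the groups compared (adjusted p = 0.0562) and with the identical column kept as a WT Torin library (WDR75 at 0.13). UTP14A and NOP14, an assembly factor of the small subunit, had the next highest log2 fold changes, 0.23 and 0.17, and did not pass.

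The Torin response was measured in the 3 knockout lines with their own controls, which are independent of the WT libraries. In TFE3 KO, 34 members were lower, against 26.0% of all genes tested, and 0 were higher by limma, against 25.4%. At an unadjusted p under 0.05, 1 member was higher, and edgeR and DESeq2 on the recovered reads called 2 and 1 higher. In TFEB KO, 28 were lower, against 21.0%, and 1 was higher, against 17.4%. In DKO, 36 were lower, against 26.2%, and 1 was higher, against 25.4%. The medians of the members were -0.33, -0.26 and -0.34, with medians of all genes tested of 0.023, 0.0032 and 0.021. The direction of the response was downward in each line, and the members' counts were above the background in each.

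LYAR fell furthest in all 3 knockout lines. In TFE3 KO it had 277, 303 and 314 normalised read counts in control and 112, 124 and 125 in Torin (-1.30 ± 0.08, adjusted p = 1.31e-19). In DKO it had 302, 291 and 304 in control and 134, 128 and 123 in Torin (-1.21). In TFEB KO it had 226, 212 and 234 in control and 118, 134 and 125 in Torin (-0.83). The Torin values of LYAR were alike across genotypes, and its controls were lowest in TFEB KO. MRTO4 had log2 fold changes of -1.15 in TFE3 KO, -1.13 in DKO and -0.69 in TFEB KO. NOP56 had -0.91, -0.81 and -0.50 in the same order. NOP16, a factor of the large subunit, fell in DKO from 158, 143 and 150 to 86.1, 76.4 and 73.2 (-0.93). NOP2, an RNA methyltransferase of the large subunit, fell in TFEB KO from 78.3, 79.8 and 75.3 to 44.5, 46.0 and 49.5 (-0.73), and UTP15, of the early processome, fell there from 25.3, 25.7 and 29.0 to 15.2, 15.1 and 16.7 (-0.73).

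Among the snoRNP proteins under Torin, 7 of 8 were lower in TFE3 KO, 5 in TFEB KO and 7 in DKO. In the same order, 26.0%, 21.0% and 26.2% of all genes tested were lower. FBL fell by 0.39 in TFE3 KO, by 0.34 in TFEB KO and by 0.34 in DKO on the log2 scale. NOP58 had log2 fold changes of -0.53 and -0.51 in TFE3 KO and DKO and did not pass in TFEB KO (-0.13). DKC1 fell in each line, by 0.57, 0.27 and 0.34 on the log2 scale in TFE3 KO, TFEB KO and DKO. NCL was lower in TFE3 KO (-0.33) and DKO (-0.33) and did not pass in TFEB KO (-0.15, adjusted p = 0.0658). NPM1 did not pass in any knockout line (-0.068, 0.0059 and -0.051).

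Of the 7 RNA polymerase I genes, 2 were lower under Torin in TFE3 KO, 2 in TFEB KO and 3 in DKO. With 26.0%, 21.0% and 26.2% of all genes tested lower in these lines, the counts in TFE3 KO and TFEB KO lay near the background. UBTF did not pass in TFE3 KO (-0.16) and fell by 0.26 in TFEB KO and 0.25 in DKO, calls lost without TFEB KO Torin replicate 3 (-0.21) and without DKO control replicate 2 (-0.22). With edgeR the TFEB KO call was also lost (-0.20). TCOF1 fell in all 4 genotypes, from 316, 307 and 286 to 173, 207 and 188 in TFE3 KO (-0.68), and it had 293 and 273 in HBSS, where it did not pass. POLR1C had log2 fold changes of -0.29 in TFE3 KO, where it was called, and -0.25 in TFEB KO, where it was not. The TFE3 KO call was lost without control replicate 1 (-0.24) or 3 (-0.27) or Torin replicate 1 (-0.28) or 2 (-0.26). POLR1C in DKO had -0.26, a call lost without any of the control libraries (-0.23, -0.28 and -0.26) and without Torin replicate 1 (-0.25) or 2 (-0.23), and also with edgeR (-0.22), DESeq2 (-0.23) or median-of-ratios rescaling (-0.22). POLR1B and RRN3 did not pass in any line. POLR1A in TFEB KO had 11.8, 13.7 and 12.6 in control and 17.4, 15.2 and 18.9 in Torin, the highest member there (0.41) without passing (adjusted p = 0.0508).

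The few members higher under Torin were NOC3L, a factor of the large subunit, and WDR75. In DKO NOC3L had 129, 122 and 124 normalised read counts in control and 148, 146 and 155 in Torin (0.26, adjusted p = 0.00729). In TFEB KO it had 99.3, 89.0 and 97.3 in control and 110, 98.0 and 122 in Torin (0.20, adjusted p = 0.0492). The DKO groups did not overlap, where 28.6% of all genes tested lay wholly higher under Torin, and the TFEB KO groups did. In TFEB KO the number of members higher was 0 without control replicate 2 (NOC3L at 0.15), control replicate 3 (0.22), Torin replicate 1 (0.20) or Torin replicate 3 (0.12), and 2 without Torin replicate 2. The NOC3L call there was also lost with no filter on low values (adjusted p = 0.0503) and with only the groups compared in the fit (adjusted p = 0.101). With the replicate number as a block it was lost too. In TFE3 KO the highest members were WDR75 (0.20), NOC3L (0.17) and RRN3 (0.12), none of which passed, and UTP14A in TFEB KO (0.15) and MYBBP1A (0.19) and WDR75 (0.17) in DKO did not pass either.

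Over HBSS and the 4 Torin comparisons, 14 members were lower each time, namely BOP1, BYSL, DKC1, IMP3, LYAR, MRTO4, NOLC1, NOP10, NOP16, NOP2, NOP56, RRP1B, RRS1 and UTP18. Another 4 members were lower in all 4 Torin comparisons without a call in HBSS (GTPBP4, NIP7, TCOF1, UTP15), and 4 were lower in HBSS without a call in any Torin comparison (MYBBP1A, NPM1, POLR1A, UTP14A). The members NOP14, POLR1B, WDR12 and WDR3 passed in none of the 5. DDX10, DDX21, GNL3 and WDR43 were higher in HBSS and lower in at least 1 Torin comparison. These patterns were counted for the members only, so no share over all genes tested stands beside them. HBSS and WT Torin also share the WT control libraries. Of the 14, BYSL lost its HBSS call without HBSS replicate 1 (-0.34) and its WT Torin call without Torin replicate 2 (-0.28), and NOP2 lost its HBSS call without HBSS replicate 2 (-0.25). UTP18 lost its HBSS call without HBSS replicate 2 (-0.36) and its WT Torin call without WT control replicate 3 (-0.30) or Torin replicate 3 (-0.28). RRS1 lost its WT Torin call without WT control replicate 1 (-0.30) or Torin replicate 3 (-0.25), and BOP1 its TFEB KO Torin call without TFEB KO control replicate 1 (-0.27). Outside the 14, NIP7 lost its WT Torin call without Torin replicate 2 (-0.35) and UTP15 without Torin replicate 3 (-0.47), and NIP7 lost its TFEB KO Torin call without control replicate 2 (-0.22) or 3 (-0.24) or Torin replicate 2 (-0.21) or 3 (-0.26). With the identical column kept as a WT Torin library, the WT Torin calls of NIP7 (-0.34), TCOF1 (-0.23), WDR43 (-0.071), DDX21 (-0.052) and GNL3 (0.0080) were lost. With edgeR those of RRS1 in WT Torin (-0.27) and NIP7 in TFEB KO Torin (-0.24) were lost.

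HBSS against Torin in WT asked directly whether both treatments differed, and shared no control. In HBSS 14 members were lower than in Torin, against 23.1% of all genes tested, and 11 were higher, against 26.1%, so that the counts lay near the background in both directions. The medians were -0.14 for the members and -0.0099 for all genes tested. UTP14A differed most, with 37.3 and 37.5 normalised read counts in HBSS and 98.2 and 105 in Torin (-1.42 ± 0.11, adjusted p = 1.69e-14). IMP3 had 149 and 153 against 302 and 307 (-1.01), and RRP9 had 13.8 and 16.7 against 30.5 and 30.8 (-0.97). In the other direction DDX21 had 2042 and 2093 in HBSS and 1114 and 1112 in Torin (0.89 ± 0.07, adjusted p = 3.15e-14), GNL3 had 138 and 137 against 84.6 and 70.4 (0.82), and DDX10 had 156 and 171 against 97.3 and 107 (0.67). None of these values overlapped between the treatments. With 2 libraries on each side, 36.9% of all genes tested lay wholly lower in HBSS and 37.1% wholly higher. UBTF (-0.96) and NOP56 (-0.86) were lower in HBSS, RRN3 was higher (0.51), and NCL had a log2 difference of 0.0011. With the identical column kept as a WT Torin library, 9 members were lower and 5 higher in HBSS.

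The knockout lines were compared with WT control, and these 3 comparisons share the WT control libraries. In TFE3 KO 10 members were higher, against 3.57% of all genes tested, and 0 were lower, against 5.84%. The tools limma, edgeR and DESeq2 each gave 0 lower, and 1 was lower at an unadjusted p under 0.05. The highest was WDR75, with 45.0, 65.3 and 56.8 normalised read counts in WT and 75.2, 83.3 and 73.6 in TFE3 KO (0.48, adjusted p = 0.00119). GNL2 had 339, 368 and 383 in WT and 455, 466 and 439 in TFE3 KO (0.32). NOP2 had 73.0, 79.4 and 74.7 in WT and 102, 88.3 and 88.1 in TFE3 KO (0.29, adjusted p = 0.0429). This call did not hold when WT control replicate 1 (0.26) or 3 (0.28) or TFE3 KO control replicate 1 (0.22), 2 (0.32) or 3 (0.32) was left out. NCL was higher by 0.25, a call lost without WT control replicate 1 (0.20), and NOP58 by 0.24, lost without WT control replicate 1 (0.22) or 3 (0.25) or TFE3 KO control replicate 2 (0.21) or 3 (0.20). The number of members higher was 5 without WT control replicate 1, 4 without TFE3 KO control replicate 2 and 3 without TFE3 KO control replicate 3.

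In TFEB KO the shift was downward. Of the 53 members 12 were lower, against 7.18% of all genes tested, and 0 were higher by limma, edgeR and DESeq2, against 7.46%, with 0 higher at an unadjusted p under 0.05. The median was -0.14 for the members and -0.0020 for all genes tested. BYSL, bystin, a factor of the small subunit, had 71.0, 73.2 and 79.2 normalised read counts in WT and 48.0, 54.5 and 47.7 in TFEB KO (-0.56 ± 0.10, adjusted p = 0.000119). BOP1, a factor of the large subunit, had 78.2, 94.4 and 80.4 in WT and 71.0, 58.7 and 53.9 in TFEB KO (-0.46). POLR1C had 58.0, 62.4 and 64.8 in WT and 47.4, 46.5 and 40.5 in TFEB KO (-0.46). The values of these 3 genes did not overlap between the lines. No share over all genes tested is given for this, so the separation is not read as particular to them. NCL was lower by 0.38, FBL by 0.34, NOP56 by 0.28 and DKC1 by 0.26 on the log2 scale, while UBTF (-0.10), RRN3 (0.14), POLR1A (-0.16), POLR1B (0.080), NOP58 (-0.11) and NPM1 (-0.095) did not pass.

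In DKO 13 members were higher, against 5.64% of all genes tested, and 1 was lower, against 7.49%. WDR75 had 74.8, 81.4 and 76.1 normalised read counts in DKO (0.48, adjusted p = 0.000896), IMP4, a partner of IMP3, had 74.0, 76.0 and 81.7 against 58.0, 56.8 and 59.1 in WT (0.41), and WDR12, which works with BOP1 and PES1, had 104, 96.2 and 94.1 against 80.7, 66.9 and 80.0 (0.37). The call of WDR12 was lost without WT control replicate 2 (0.28) or DKO control replicate 1 (0.33). BYSL was the 1 member lower (-0.37), and this was lost without WT control replicate 3 (-0.33) or DKO control replicate 2 (-0.29), which leaves 0 lower. The number of members higher was 8 without WT control replicate 1, 6 without DKO control replicate 1 and 8 without DKO control replicate 2, and 5 with only the groups compared in the fit. Of the 53 members, 28 passed in none of the 3 knockout comparisons, a pattern that was not counted over all genes tested.

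TFE3 KO against TFEB KO under control conditions shared no library with WT. Here 31 members were higher in TFE3 KO, against 14.3% of all genes tested, and 0 were lower by limma, edgeR and DESeq2, against 15.6%, with 0 lower at an unadjusted p under 0.05. The median was 0.25 for the members and 0.00043 for all genes tested. NCL had 4045, 3975 and 3861 normalised read counts in TFE3 KO and 2684, 2591 and 2428 in TFEB KO (0.63 ± 0.07, adjusted p = 1.56e-10). BYSL had 75.4, 70.1 and 83.9 against 48.0, 54.5 and 47.7 (0.60), and BRIX1, a factor of the large subunit, had 194, 201 and 205 against 118, 132 and 153 (0.58). The lines did not overlap for any of the 3. No share over all genes tested is given for this, so it is not read as particular to these genes. By role, the members higher were 2 of 7 for RNA polymerase I, 6 of 8 snoRNP proteins, 2 of 4 nucleolar proteins, 9 of 16 small subunit factors and 12 of 18 large subunit factors. POLR1C (0.50), NOP58 (0.35), DKC1 (0.33), FBL (0.29) and NOP56 (0.23) were higher, the last without a call when TFE3 KO control replicate 3 was left out (0.18). UBTF (0.16), POLR1A (0.17), POLR1B (0.12), RRN3 (-0.17) and NPM1 (0.027) did not pass.

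**Figure D5:**
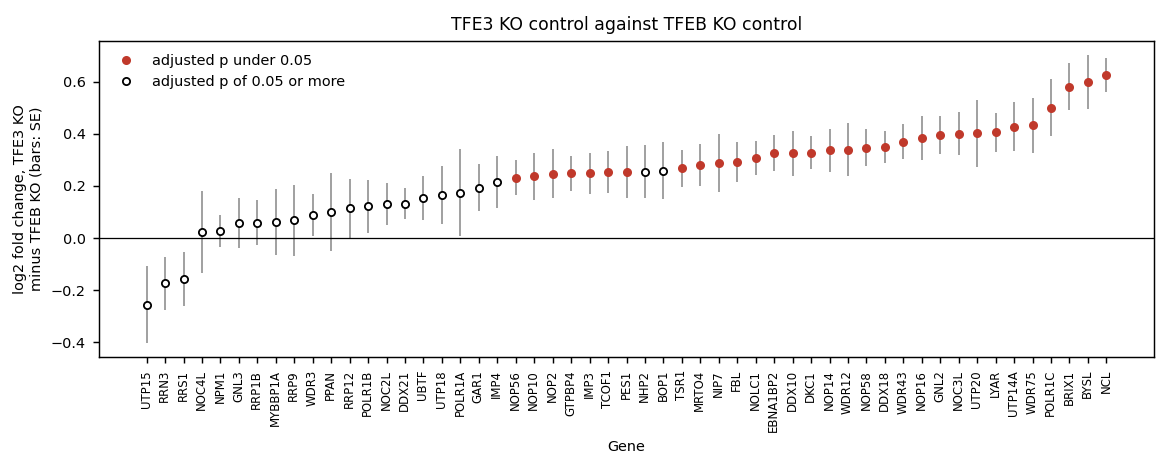
Log2 fold change (vertical axis) of each of the 53 members between TFE3 KO control and TFEB KO control, ordered by size, with bars for the SE; filled points are called and open points are not. The values run from -0.26 (UTP15) to 0.63 (NCL), and none of the members below 0 is called.

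The Torin responses of the lines were compared by interaction terms. Against the WT response, TFE3 KO had 1 member with a lower response, against 0.575% of all genes tested, and 0 with a higher one, against 0.49%. That member was NOLC1, a chaperone of snoRNPs, with 391, 390 and 434 normalised read counts in WT control, 292 and 287 in WT Torin, 456, 470 and 455 in TFE3 KO control and 254, 255 and 249 in TFE3 KO Torin. The interaction was -0.39 ± 0.10 (adjusted p = 0.0316). The call was lost on leaving out WT control replicate 1 (-0.36) or 2 (-0.36), WT Torin replicate 2 (-0.37) or 3 (-0.40), any TFE3 KO control library (-0.39, -0.37 and -0.39) or TFE3 KO Torin replicate 2 (-0.39) or 3 (-0.38). It was also lost with only the groups compared (adjusted p = 0.0642) and with the identical column kept as a WT Torin library (-0.47, adjusted p = 0.0625). For TFEB KO against WT, 0 members had a lower response by limma, edgeR and DESeq2, against 0.345%, and 0 a higher one by limma and edgeR, against 0.812%, with 1 by DESeq2 and 1 by limma without WT control replicate 1. At an unadjusted p under 0.05, 4 were lower and 3 higher. For DKO against WT, all 3 tools gave 0 lower, against 0.192%, and 0 higher, against 0.314%, with 6 lower and 0 higher at an unadjusted p under 0.05. At an unadjusted p under 0.05 TFE3 KO against WT had 14 lower and 0 higher, and edgeR and DESeq2 also gave 0 higher. No share over all genes tested is given beside these unadjusted counts, so they are not read as a difference of the members.

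Between the single knockouts, which share no library with WT, 10 members fell further under Torin in TFE3 KO than in TFEB KO, against 4.58% of all genes tested, and 0 fell less by limma, edgeR and DESeq2, against 3.1%, with 0 at an unadjusted p under 0.05. DDX21 differed most. It had 1486, 1481 and 1479 normalised read counts in TFE3 KO control and 962, 1022 and 993 in TFE3 KO Torin, while TFEB KO had 1350, 1338 and 1371 in control and 1329, 1276 and 1300 in Torin. The interaction was -0.52 ± 0.08 (adjusted p = 2.04e-05). LYAR (-0.47) and MRTO4 (-0.46) followed, and NOP56 (-0.41) and NOP58 (-0.40) were among the 10. The control levels of these genes also differed between the lines in the comparison of TFE3 KO with TFEB KO above, except for DDX21, whose log2 difference of 0.13 did not pass. The call of MRTO4 there was lost without TFE3 KO control replicate 3 (0.23). The count was 6 without TFEB KO control replicate 2. RRP1B, 1 of the 10, was not called with no filter on low values (-0.37, adjusted p = 0.051).

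Other genes of the pathway, 124 in number, were taken from lists of RNA polymerase I, small subunit, large subunit and exosome genes outside the members. In HBSS 72 were lower and 12 higher, with a median log2 fold change of -0.32, where 24.7% of all genes tested were lower and 23.6% higher. By list, 8 of 16 RNA polymerase I genes, 29 of 45 small subunit genes, 28 of 49 large subunit genes and 7 of 14 exosome genes were lower. CD3EAP, a subunit of RNA polymerase I, had the deepest fall (-2.45), followed by the small subunit factors NOL6 (-1.43) and RRP36 (-1.23). TAF1D, of the promoter selectivity factor of the polymerase, rose most (1.37), followed by RSL24D1, a large subunit factor (0.81), and POLR1D, a polymerase subunit (0.72). In WT Torin 45 of the 124 were lower and 15 higher (median -0.13), where 23.4% of all genes tested were lower and 20.5% higher. RRP36 (-1.21) and the exosome cofactors C1D (-1.13) and MPHOSPH6 (-1.04) were lowest there, and NOB1, the nuclease of the small subunit (0.89), POLR1D (0.88) and the exosome subunit EXOSC5 (0.86) were highest. In TFE3 KO, TFEB KO and DKO under Torin, 57, 52 and 61 were lower, where 26.0%, 21.0% and 26.2% of all genes tested were lower. In the same order 14, 13 and 16 were higher, where 25.4%, 17.4% and 25.4% of all genes tested were higher. In the promoter table an E-box was in 25.7% of 109 promoters of these genes.

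Ribosomal protein genes, whose products the assembly factors put in place, gave values of another kind. Of 79 cytosolic ribosomal protein genes, 2 were lower and 32 higher in HBSS (median 0.18), and 2 were lower and 46 higher in WT Torin (median 0.22), where 23.6% and 20.5% of all genes tested were higher. In TFE3 KO, TFEB KO and DKO under Torin 67, 37 and 54 were higher, where 25.4%, 17.4% and 25.4% of all genes tested were higher, so that in all 4 genotypes the median of these genes was above 0 while that of the assembly factors was below 0. In TFEB KO against WT 55 of the 79 were lower (median -0.23), where 7.18% of all genes tested were lower. Of 77 mitochondrial ribosomal protein genes tested, 43 were lower and 8 higher in HBSS (median -0.33) and 47 lower and 3 higher in WT Torin (median -0.39), where 24.7% and 23.4% of all genes tested were lower. MYC, a known regulator of the members, had 14.9 ± 3.2 normalised read counts in WT control (SD, n = 3), 18.5 ± 0.78 in HBSS (n = 2) and 40.9 ± 3.8 in WT Torin (n = 2). It did not pass in HBSS (0.31, adjusted p = 0.330), rose in WT Torin (1.42, adjusted p = 5.13e-05) and was lower in TFEB KO control, at 4.55, 10.1 and 11.3 (-0.78, adjusted p = 0.0208). MYC transcript thus rose in Torin, where 27 members were lower, and the part of MYC in these values was not tested.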

How the data were processed

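Polyadenylated RNA of 501mel cells was sequenced as QuantSeq Forward 3′-end libraries. The authors trimmed reads (FastQC 0.11.9, cutadapt 2.10), aligned them to hg38 with STAR 2.7.8a and used edgeR for normalisation. What they deposited is a signal per gene, normalised read counts on a CPM scale, for 13523 genes. For each library the deposited values were whole multiples of the value of 1 read (100% within 0.02 read), so whole reads could be recovered.

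Samples were grouped by GEO labels. Because the deposited values are normalised, limma 3.58.1 (R 4.3.3; lmFit, eBayes with trend and robust) was the test, on log2(value + 1), for the 13052 genes that reached 1 in 3 or more libraries. The model held 25 libraries in 9 groups, without the 2 identical columns. The 14 comparisons were two-sided and Benjamini-Hochberg adjusted over all genes tested. A fold change on this scale understates the change of low genes. Named members were fixed by role, by the lowest and highest 3 in HBSS and each Torin comparison, by up to 3 called at each end elsewhere, and by a log2 fold change of 1 or more. Others were chosen after their values were seen. The members and lists were chosen with earlier results of these data known.

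Promoters came from RefSeq (GRCh38.p14) and gene positions from GENCODE. Distances of an E-box were counted from the RefSeq gene start, which can differ from that of GENCODE. Alternatives were other pseudocounts (0.1, 5), filters (none, a minimum of 5), median-of-ratios rescaling, only the groups compared, the replicate number as a block, edgeR 4.0.16 and DESeq2 1.42.0 on recovered reads, the identical column kept in either group, and each library left out. The models were run on simulated counts for HBSS against control in WT. These counts had the same spread in all genes, changes only in genes above a set level and no clone effect. They cannot show how the models treat low genes, unequal spread between genes or clones.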

Additional observations from a re-analysis of the deposited data

Results flagged for a closer look

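The Torin response of 11 results differed between cell lines by an interaction term in limma (adjusted p under 0.05). Between TFE3 KO and TFEB KO, which share no library, the differences on the log2 scale were -0.52 for DDX21 (adjusted p = 2.04e-05), -0.47 for LYAR (0.00274), -0.46 for MRTO4 (0.00661), -0.43 for BRIX1 (0.0269), -0.41 for NOP56 (0.00365), -0.40 for NOP58 (0.00606), -0.37 for NOLC1 (0.00516), -0.37 for RRP1B (0.0491), -0.33 for WDR43 (0.0247) and -0.30 for DKC1 (0.0279). Each is a deeper fall in TFE3 KO. Between TFE3 KO and WT the difference was -0.39 for NOLC1 (adjusted p = 0.0316).

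The calls of DDX21, LYAR, MRTO4, NOP56, NOP58 and NOLC1 between the single knockouts held in every alternative run. That of NOLC1 between TFE3 KO and WT was lost without most single libraries, as given with its values in the report. The call of BRIX1 was lost without TFEB KO control replicate 1 (-0.34) or 2 (-0.42), TFEB KO Torin replicate 3 (-0.36), TFE3 KO control replicate 2 (-0.43) or 3 (-0.41) or TFE3 KO Torin replicate 3 (-0.34). The call of WDR43 was lost without TFEB KO control replicate 2 (-0.31), TFEB KO Torin replicate 2 (-0.31), TFE3 KO control replicate 3 (-0.27) or TFE3 KO Torin replicate 1 (-0.24). That of DKC1 was lost without TFEB KO control replicate 2 (-0.25), TFEB KO Torin replicate 2 (-0.27), TFE3 KO control replicate 2 (-0.30) or 3 (-0.28) or TFE3 KO Torin replicate 1 (-0.28) or 2 (-0.29). That of RRP1B was lost without any 1 of the 12 libraries (-0.40 to -0.33) except TFEB KO control replicate 3 and TFE3 KO control replicate 3. It was also lost with no filter on low values (-0.37, adjusted p = 0.051) and with the replicate number as a block. The cause of the differences was not tested.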

How the results depend on the processing

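Of 272 calls on members over the 14 comparisons, 173 held in every alternative run. The calls lost numbered 20 with edgeR, 15 with DESeq2, 13 with median-of-ratios rescaling, 27 with only the groups compared in the fit, 3 with no filter, 2 with a pseudocount of 0.1 and 0 with a pseudocount of 5 or a minimum of 5. Keeping the identical column as WT HBSS lost 2 and keeping it as WT Torin lost 18 and reversed 1, GNL3 in Torin against control in WT (0.0080, adjusted p = 0.975). Over all genes tested, HBSS against Torin gave 3262 lower and 3652 higher with the column as WT HBSS. With the column as WT Torin it gave 1266 lower and 1428 higher. The source of the column and the cause of the lost calls were not tested.

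The numbers of members lower moved by less than 1.5 times in HBSS and in all 4 Torin comparisons against control. Members higher in WT Torin numbered 2 with median-of-ratios rescaling, 0 with only the groups compared, 3 with edgeR, 2 with DESeq2 and 0 with the identical column as WT Torin, and 0 to 1 when 1 library was left out. In TFE3 KO Torin they numbered 1 with rescaling, 2 with edgeR and 1 with DESeq2. In TFEB KO Torin they numbered 2 with a pseudocount of 5, a minimum of 5, rescaling, edgeR or DESeq2, 0 with no filter or only the groups compared, and 0 to 2 when 1 library was left out. HBSS against Torin gave 9 lower and 5 higher with the identical column as WT Torin. Members higher in TFE3 KO against WT numbered 3 to 8, and in DKO against WT 6 to 12, when 1 library was left out, and 5 in DKO with only the groups compared. Members lower in DKO numbered 0 to 1 when 1 library was left out. For the Torin response of TFE3 KO minus WT, 0 were lower with only the groups compared or the identical column as WT Torin, 2 with DESeq2 and 0 to 1 when 1 library was left out. For TFEB KO minus WT 1 was higher with DESeq2, and 0 to 1 when 1 library was left out. For TFE3 KO minus TFEB KO 6 to 11 were lower when 1 library was left out. Where 1 library remained in an arm, it was assumed to vary like the other groups.

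Over all groups the replicate numbers gave no clear pairing of the samples. Deviations of same-numbered libraries had a median correlation of 0.013, above 0.1 in 18 of 92 pairs. For differently numbered libraries the median was -0.0070, above 0.1 in 25 of 185 pairs. In all, 11 of 25 libraries correlated best with their own number. Between DKO control and DKO Torin all 3 same-numbered pairs were above 0.1 (0.122, 0.111 and 0.297), and with the replicate block that comparison still gave 36 members lower and 1 higher. The replicate block lost 6 calls, none of them in that comparison, namely BRIX1 in HBSS (-0.23), GNL3 in WT Torin (-0.25), NOC2L in TFE3 KO Torin (-0.19), NOC3L in TFEB KO Torin (0.20), NOP58 in HBSS against Torin (-0.18) and RRP1B in the response of TFE3 KO minus TFEB KO (-0.37), and gave 0 members higher in TFEB KO Torin. The depth limits POLR1A most, whose WT HBSS libraries held 39 and 53 reads.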
